A study of Mus musculus with 6 samples.

Results

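Genes of sarcolemma repair and caveolae, 10 in all, were followed in mouse quadriceps: the ferlins Dysf and Myof, the repair ligase Trim72, the anoctamin Ano5, the caveolins Cav1 and Cav3, and the annexins Anxa1, Anxa2, Anxa5 and Anxa6. They were taken by gene symbol from a table of 54532 genes, in which all 10 had a row of their own. The muscles came from pups at postnatal day 10 (P10) kept on chow. There were 3 libraries from Myf5Cre-Pcyt2 flox/flox pups and 3 from control pups (Pcyt2 flox/flox). Both groups carry the floxed alleles of Pcyt2, and the labels name Cre only in the first group, so loss of Pcyt2 and the presence of Myf5Cre cannot be told apart. In this model Cre is expressed from Myf5, a gene of muscle precursors, so other cell types of the muscle need not be deleted. The labels do not say whether pups of a group were littermates, so the p-values cover only how these libraries varied.

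The sarcolemma is the plasma membrane of the muscle fibre, and contraction tears it. Calcium that enters through a tear recruits dysferlin and annexins. Vesicles carrying TRIM72 (MG53) also gather at the wound, which is sealed with membrane. Caveolae are small flask-shaped pits of the same membrane that are built from caveolins and cavins and flatten under stretch. In humans, mutations of DYSF, ANO5 and CAV3 cause muscle disease. Pcyt2 encodes an enzyme of the synthesis of phosphatidylethanolamine, a main phospholipid of such membranes.

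Library totals lay between 18271765 and 20446920 counts in Myf5Cre-Pcyt2 and between 17775898 and 20216013 counts in control muscle. Pcyt2 had 280, 328 and 272 counts in Myf5Cre-Pcyt2 and 353, 277 and 277 in control, and its difference did not pass (log2 fold change -0.28, SE 0.11, edgeR adjusted p = 0.0944, 0.0872 to 0.706 over alternatives). Which exons are floxed was not known here, so a count over the whole gene does not check the deletion. All 8 markers of muscle fibres, such as Acta1 and Ckm, were detected in every library. Their summed level was 103479.8 to 136853 CPM in Myf5Cre-Pcyt2 and 167131.7 to 237451 CPM in control muscle, and 4 of the 8 fell. By Xist and Y-linked counts each group held 1 male library (replicate 3) and 2 female libraries.

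Ano5 and Trim72 fell in Myf5Cre-Pcyt2 muscle, and the other 8 genes did not pass the test. Of all tested genes 18.6% passed, 9.59% as lower and 9.02% as higher. Ano5 stood at 59.0% of its control level (95% interval 46.4 to 75.1%) and Trim72 at 73.7% (63.1 to 86.2%). Dysf was lower by a similar amount, at 74.4% (57.9 to 95.7%), but its libraries were more spread and it did not pass. Cav3, like these a gene of the muscle fibre, stood at 114% (95.5 to 135%) and did not pass. Levels are CPM, the counts of a gene relative to its library's total, with totals scaled by the trimmed mean of M values (TMM). Groups were compared by the two-sided quasi-likelihood test of edgeR, and p-values were adjusted by the Benjamini-Hochberg method over 14715 tested genes, with 0.05 as threshold.

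**Figure D1:**
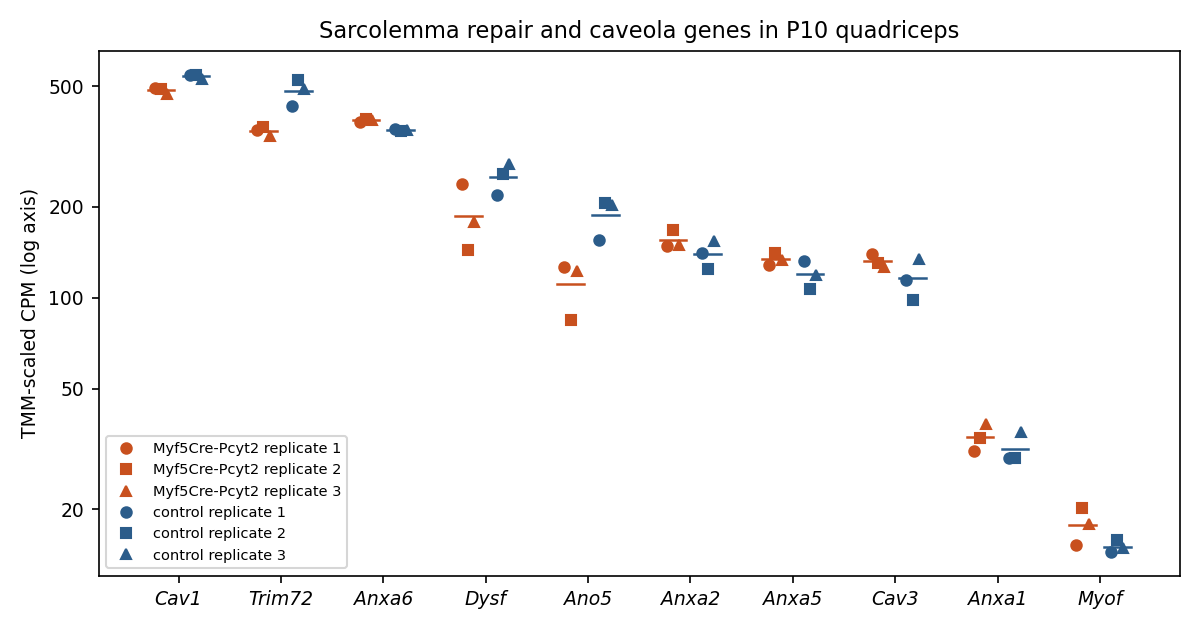
TMM-scaled CPM (log axis) of the 10 genes in each of the 3 Myf5Cre-Pcyt2 libraries (orange) and 3 control libraries (blue), with a bar at each group's mean; the symbol gives the replicate number. The groups are separate for Ano5, Trim72 and Cav1, with Myf5Cre-Pcyt2 below control, and for Anxa6, with Myf5Cre-Pcyt2 above control.

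The RefSeq start regions of Trim72, Ano5 and Cav3 are shown because Trim72 and Ano5 fell together while Cav3, another fibre gene, did not pass. Each window runs from 250 bases before to 50 bases after a start on the plus strand of GRCm38.p6, written from the 5′ end. They are chr7:128004128-128004427 for Trim72, chr7:51510779-51511078 for Ano5 and chr6:112459255-112459554 for Cav3. The RefSeq start of Trim72 lies downstream of the GENCODE start of the gene. Capitals mark E-boxes (CANNTG), the motif bound by MyoD and its relatives.
Trim72: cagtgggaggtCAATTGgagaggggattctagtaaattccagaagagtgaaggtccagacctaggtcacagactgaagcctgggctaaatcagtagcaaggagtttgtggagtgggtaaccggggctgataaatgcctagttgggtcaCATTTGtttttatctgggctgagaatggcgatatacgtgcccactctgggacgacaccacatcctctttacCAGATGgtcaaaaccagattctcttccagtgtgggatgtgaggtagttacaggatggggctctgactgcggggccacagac
Ano5: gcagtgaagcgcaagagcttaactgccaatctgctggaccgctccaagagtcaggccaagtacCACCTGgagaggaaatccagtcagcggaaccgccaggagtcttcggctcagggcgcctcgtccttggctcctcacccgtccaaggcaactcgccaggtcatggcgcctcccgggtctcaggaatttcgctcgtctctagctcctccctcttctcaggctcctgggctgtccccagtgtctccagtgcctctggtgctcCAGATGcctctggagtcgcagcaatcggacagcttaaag
Cav3: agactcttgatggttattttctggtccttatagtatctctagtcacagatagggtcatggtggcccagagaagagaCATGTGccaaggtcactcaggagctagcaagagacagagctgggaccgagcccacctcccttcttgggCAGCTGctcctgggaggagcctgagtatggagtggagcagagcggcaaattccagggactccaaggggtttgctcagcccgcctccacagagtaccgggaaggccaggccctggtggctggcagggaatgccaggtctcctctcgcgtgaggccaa

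On both strands, the Trim72 window held 3 E-boxes, the Ano5 window 2 and the Cav3 window 2. A share of 72.3% of 32851 mouse promoter windows of 300 bases held at least 1. The form CAGCTG, which is contained in CANNTG, was present once in Cav3 and not in these windows of Trim72 and Ano5, against 16.3% of all windows. The TATA motif TATAAA (13.6% of all windows) and the GC box GGGCGG (35.7%) were not found in the 3 windows. Promoter windows were matched for 9 of the 10 genes. Those of Dysf, which was lower by an amount similar to Trim72 but did not pass, held 0 and 1 E-boxes and 1 and 3 GC boxes. Any part of these motifs in the changes was not tested.

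Per kilobase of exon, Trim72 was the most and Myof the least abundant of the 10 transcripts. In Myf5Cre-Pcyt2 muscle Trim72 averaged 159 ± 5.17 RPKM (CPM per kilobase of exon; SD, n = 3) and Myof 1.41 ± 0.193 RPKM; in control muscle Trim72 averaged 216 ± 21.3 RPKM and Myof 1.19 ± 0.0568 RPKM. The order of the levels was the same in both groups: Trim72, Cav1, Anxa6, Cav3, Anxa5, Anxa2, Dysf, Ano5, Anxa1 and Myof. Neighbours in that order had separate ranges, except Ano5 and Anxa1 in Myf5Cre-Pcyt2 muscle and Dysf and Ano5 in control muscle. Dysf averaged 22.4 ± 5.70 RPKM and Ano5 14.2 ± 2.94 RPKM in Myf5Cre-Pcyt2, against 30.1 ± 3.54 RPKM for Dysf and 24.0 ± 3.58 RPKM for Ano5 in control.

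Ano5 (ENSMUSG00000055489; GRCm38 chromosome 7, 51511029 to 51598709, plus strand) encodes a membrane protein of the anoctamin family with phospholipid scrambling activity, which moves lipids between the leaflets of a membrane. It had 126, 84.6 and 122 CPM in Myf5Cre-Pcyt2 replicates 1 to 3 and 156, 206 and 202 CPM in control replicates 1 to 3. Every Myf5Cre-Pcyt2 library was below every control library, and Myf5Cre-Pcyt2 replicate 2 was the lowest. The means were 111 ± 23.0 CPM in Myf5Cre-Pcyt2 and 188 ± 28.0 CPM in control (SD, n = 3 each). The log2 fold change was -0.76 (SE 0.16, edgeR adjusted p = 0.0105), and the fall passed in all 15 alternatives, with adjusted p from 7.78e-11 to 0.0384. The lowest of these came with no filter on low counts, where the SE shrank to 0.11.

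Trim72 (ENSMUSG00000042828; chromosome 7, 128003949 to 128011033, plus strand) encodes a muscle ubiquitin ligase that brings vesicles to membrane wounds. It had 358, 367 and 344 CPM in Myf5Cre-Pcyt2 and 432, 526 and 491 CPM in control muscle. The groups did not overlap, and the Myf5Cre-Pcyt2 libraries lay closer together than the controls, with means of 356 ± 11.5 CPM in Myf5Cre-Pcyt2 and 483 ± 47.5 CPM in control (SD, n = 3 each). The log2 fold change was -0.44 (SE 0.10, edgeR adjusted p = 0.0162). It did not pass without Myf5Cre-Pcyt2 replicate 2 (adjusted p = 0.0555, log2 fold change -0.46) or replicate 3 (0.0769, log2 fold change -0.42). Without these replicates in turn, 846 and 1280 genes passed in all, against 2739. Trim72 also did not pass with a replicate block (0.0585, log2 fold change -0.44) or library size alone (0.104, log2 fold change -0.22). Its adjusted p over alternatives ran from 2.05e-04 to 0.104. The antisense gene Gm15533 shares 617 of the 2233 exon bases of Trim72; it had 3, 14 and 4 counts in Myf5Cre-Pcyt2 and 5, 2 and 2 in control, and without a stated strand setting reads of the shared bases cannot be assigned.

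Dysf (ENSMUSG00000033788; chromosome 6, 84008590 to 84211060, plus strand) encodes dysferlin, the calcium-binding ferlin of the adult sarcolemma. Its level was 238, 144 and 178 CPM in Myf5Cre-Pcyt2 and 219, 256 and 277 CPM in control muscle. The groups overlapped, with Myf5Cre-Pcyt2 replicate 1 above control replicate 1 and the other 2 Myf5Cre-Pcyt2 libraries below every control. The means were 187 ± 47.5 CPM in Myf5Cre-Pcyt2 and 251 ± 29.4 CPM in control (SD, n = 3 each). The log2 fold change was -0.43 (SE 0.16, edgeR adjusted p = 0.0934). It passed without Myf5Cre-Pcyt2 replicate 1 (adjusted p = 0.0176, log2 fold change -0.64) and with DESeq2 (0.0263). It also passed in edgeR with no filter on low counts (0.00121), where the SE shrank to 0.11 and took little account of the spread of its libraries. The adjusted p over alternatives ran from 0.00121 to 0.288. Antisense genes share 352 (Gm15475) and 105 (Gm33024) of its 8328 exon bases.

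Cav3 (ENSMUSG00000062694; chromosome 6, 112459505 to 112472872, plus strand) encodes the caveolin of muscle fibres. It had 139, 130 and 126 CPM in Myf5Cre-Pcyt2 and 115, 98.3 and 135 CPM in control, and control replicate 3 lay within the Myf5Cre-Pcyt2 range. The means were 132 ± 6.56 CPM in Myf5Cre-Pcyt2 and 116 ± 18.3 CPM in control (SD, n = 3 each), with a log2 fold change of 0.19 (SE 0.11, edgeR adjusted p = 0.273).

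These are bulk samples, in which fewer cells of a type and less RNA per cell cannot be told apart. Beside the falls of Ano5 and Trim72, the summed level of the 8 fibre markers was lower in all 3 Myf5Cre-Pcyt2 libraries than in any control library, and their log2 fold changes ran from -0.94 to -0.17. The part of the fibre transcripts in the 2 falls was not tested. Satellite cell markers stood at 89.7 to 98.5 CPM in sum in Myf5Cre-Pcyt2 and 66.6 to 70.8 CPM in control, and 4 of 5 rose.

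Of the 6 genes expressed widely beyond muscle fibres, Myof, Cav1 and the 4 annexins, 0 passed with edgeR, 0 had an unadjusted p under 0.05, and 0 passed with DESeq2 or limma-voom. Cav1 (ENSMUSG00000007655; chromosome 6, 17306335 to 17341452, plus strand) encodes the caveolin of endothelium, fat and connective tissue. It had 494, 490 and 471 CPM in Myf5Cre-Pcyt2 and 547, 545 and 529 CPM in control muscle. Its groups did not overlap, with means of 485 ± 12.3 CPM in Myf5Cre-Pcyt2 and 540.1 ± 9.87 CPM in control (SD, n = 3 each). The log2 fold change was -0.16 (SE 0.09, edgeR adjusted p = 0.250, 0.178 to 0.691 over alternatives), and it turned to 0.05 with library size alone, which put the median of all genes at 0.21.

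Anxa6 (ENSMUSG00000018340; chromosome 11, 54979108 to 55033445, minus strand) encodes a large annexin that gathers in the repair cap of mouse fibres. It had 382, 389 and 386 CPM in Myf5Cre-Pcyt2 and 362, 356 and 357 CPM in control. It was higher in each Myf5Cre-Pcyt2 library by a small amount (log2 fold change 0.11, SE 0.09, adjusted p = 0.416), and of the alternatives run it passed only with library size alone (0.0349; range 0.0349 to 0.617).

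Myof (ENSMUSG00000048612; chromosome 19, 37899036 to 38043577, minus strand) encodes myoferlin, a ferlin of myoblasts that acts in their fusion. It had 15.3, 20.1 and 17.8 CPM in Myf5Cre-Pcyt2 and 14.5, 15.8 and 14.8 CPM in control, with a log2 fold change of 0.24 (SE 0.11, edgeR adjusted p = 0.161). It passed with library size alone (0.0339; range over alternatives 0.0339 to 0.481). The Myf5Cre-Pcyt2 value of replicate 1 lay within the control range, and the other 2 lay above it.

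Anxa1, Anxa2 and Anxa5 encode annexins that bind membranes where calcium is high. Anxa1 (ENSMUSG00000024659; chromosome 19, 20373428 to 20390944, minus strand) had 31.2, 34.3 and 38.1 CPM in Myf5Cre-Pcyt2 and 29.5, 29.4 and 35.9 CPM in control. Anxa2 (ENSMUSG00000032231; chromosome 9, 69453620 to 69491795, plus strand) had 148, 168 and 149.6 CPM in Myf5Cre-Pcyt2 and 141, 124 and 154 CPM in control. Anxa5 (ENSMUSG00000027712; chromosome 3, 36448923 to 36475894, minus strand) had 129, 141 and 133 CPM in Myf5Cre-Pcyt2 and 133, 107 and 119 CPM in control. The groups of all 3 overlapped. The log2 fold changes were 0.13 (SE 0.11) for Anxa1, 0.15 (SE 0.10) for Anxa2 and 0.17 (SE 0.10) for Anxa5, with edgeR adjusted p of 0.424, 0.307 and 0.2497. The upper ends of their 95% intervals lay at 129, 129.9 and 130.2% of control.

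**Figure D2:**
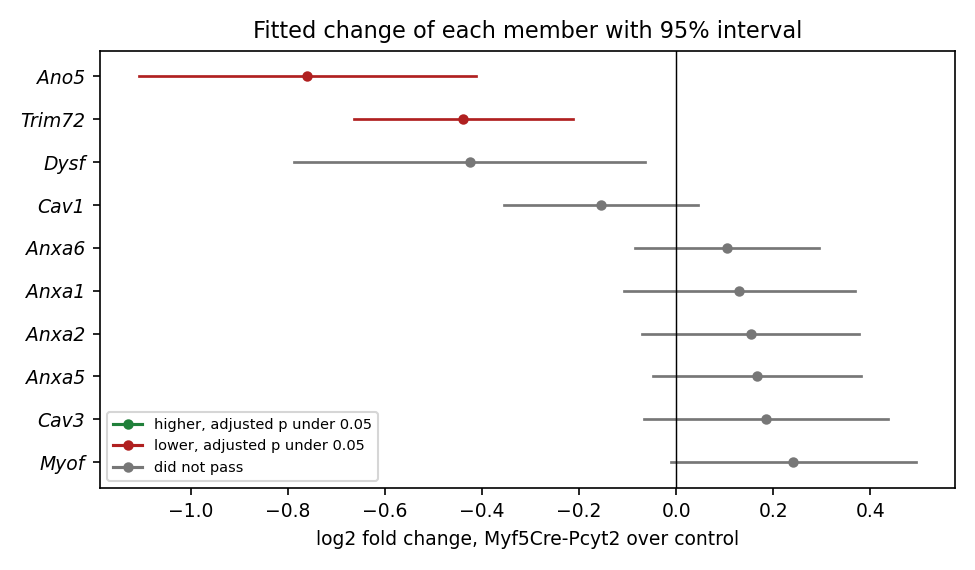
Log2 fold change of each gene, Myf5Cre-Pcyt2 over control, with its 95% interval from the edgeR fit; colour marks genes past an adjusted p of 0.05. Ano5 (-0.76) and Trim72 (-0.44) are the members past the threshold, and the annexins, Cav3 and Myof lie between 0.11 and 0.24.

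All 10 members passed the filter on low counts, 2 of them were lower and 0 higher. That share of 20% is near the background of 18.6%. The 2 lower members became 1 without Myf5Cre-Pcyt2 replicate 2, without replicate 3 of that group, with library size alone or with a replicate block, and 2 were higher with library size alone. At an unadjusted p under 0.05, 3 members were lower and 0 higher; DESeq2 called 3 lower and 0 higher, and limma-voom 2 and 0. Ranges of the groups did not overlap for 3 lower and 1 higher members, where 39.0% of all tested genes did not overlap (19.2% lower and 19.9% higher). The median log2 fold change of the members was 0.12, against -0.002 for all tested genes.

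Ratios of related genes within a library do not depend on the scaling between libraries. Ano6 encodes a widely expressed scramblase of the same family as Ano5, and the ratio of Ano6 to Ano5 counts was 0.867, 1.28 and 0.957 in Myf5Cre-Pcyt2 and 0.637, 0.487 and 0.468 in control muscle. Every Myf5Cre-Pcyt2 library was above every control library, by 0.96 on the log2 scale on average. The exact permutation test, two-sided, gave p = 0.1, the smallest p that 3 against 3 libraries allow, and p = 0.2 adjusted over the 4 ratios examined.

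The Cav1 to Cav3 ratio was 3.55, 3.77 and 3.73 in Myf5Cre-Pcyt2 and 4.77, 5.54 and 3.92 in control, also without overlap (mean log2 difference -0.35, exact permutation p = 0.1, adjusted p = 0.2). The Myof to Dysf ratio was 0.0642, 0.140 and 0.10 in Myf5Cre-Pcyt2 and 0.0661, 0.0618 and 0.0536 in control, and Myf5Cre-Pcyt2 replicate 1 lay within the control range (difference 0.68, exact permutation p = 0.2). The Anxa2 to Anxa6 ratio was 0.388, 0.432 and 0.387 in Myf5Cre-Pcyt2 and 0.389, 0.349 and 0.4301 in control, with overlap (difference 0.05, exact permutation p = 0.6), and that difference changed sign without replicate 2 of either group. None of the 4 ratios could pass at this number of libraries.

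**Figure D3:**
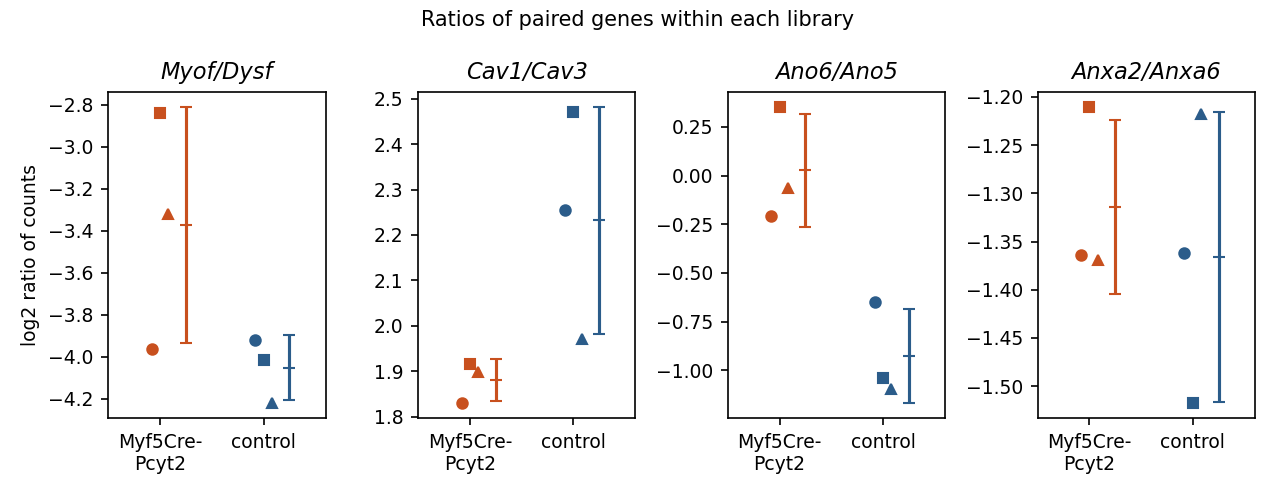
Log2 ratio of the counts of 2 genes in each library for 4 gene pairs, Myf5Cre-Pcyt2 (orange) left of control (blue), with mean and SD beside the points; symbols give the replicate as in the plot of levels, and each panel has its own scale. The groups are separate for Cav1/Cav3 and Ano6/Ano5 and overlap for Myof/Dysf and Anxa2/Anxa6.

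Other genes of the same families and of the repair process were listed as context: 4 ferlins, 8 annexins, 12 caveola genes and 23 repair partners. Of these 47 genes 41 were tested, 2 rose, 4 fell and 35 did not pass, a share of 14.6% called against the background of 18.6% (median log2 fold change 0.04). The 6 called genes became 1, 2, 2 and 3 without Myf5Cre-Pcyt2 replicate 2, Myf5Cre-Pcyt2 replicate 3, control replicate 2 and control replicate 3, 10 with library size alone and 3 with a replicate block.

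Among the caveola genes, Ehd4 rose, Cav2 fell and 10 of 12 did not pass. Ehd4, an ATPase of membrane trafficking, had 278, 283 and 308 CPM in Myf5Cre-Pcyt2 and 159, 161 and 221 CPM in control. The groups were separate (log2 fold change 0.69, SE 0.13, edgeR adjusted p = 0.00727), and the rise passed in all 15 alternatives (adjusted p from 1.88e-08 to 0.0344). Cav2, the caveolin that assembles with Cav1, had 67.0, 59.7 and 68.9 CPM in Myf5Cre-Pcyt2 and 80.9, 76.2 and 94.9 CPM in control (log2 fold change -0.37, SE 0.10, edgeR adjusted p = 0.0317). Cav2 did not pass without any 1 of the Myf5Cre-Pcyt2 replicates 1, 2 and 3 (adjusted p = 0.0566, 0.133 and 0.0672) or control replicate 3 (0.0770), with library size alone (0.341), or with the total of all but the 20 most abundant genes (0.0871), over a range of 0.00594 to 0.341.

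Cavin1, Cavin4, Ehd2 and Pacsin3 did not pass. Cavin1, which every caveola needs, averaged 585 ± 47.4 CPM in Myf5Cre-Pcyt2 and 539 ± 19.7 CPM in control, with a log2 fold change of 0.12 (edgeR adjusted p = 0.436). The muscle cavin Cavin4 averaged 309.6 ± 22.7 CPM in Myf5Cre-Pcyt2 and 303 ± 54.5 CPM in control (SD, n = 3 each), with a log2 fold change of 0.03 (edgeR adjusted p = 0.881) that changed sign without replicate 1 of either group. Ehd2, the ATPase at the caveolar neck, and Pacsin3, a membrane-bending protein of muscle caveolae, had log2 fold changes of 0.04 and 0.07 (edgeR adjusted p = 0.797 and 0.636), and that of Ehd2 changed sign without Myf5Cre-Pcyt2 replicate 2 or control replicate 3.

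Among the repair partners, Ahnak rose, Capn3 and Smpd1 fell, and 20 of 23 did not pass. Ahnak, a giant scaffold protein that binds dysferlin and the Anxa2 complex, had 492, 628 and 581 CPM in Myf5Cre-Pcyt2 and 452, 413 and 411 CPM in control, without overlap (log2 fold change 0.41, SE 0.11, edgeR adjusted p = 0.0290). Capn3, the calcium-dependent protease of muscle, had 138, 117 and 111 CPM in Myf5Cre-Pcyt2 and 139, 184 and 164 CPM in control (log2 fold change -0.41, SE 0.12, edgeR adjusted p = 0.0386). Its groups did not overlap, though replicate 1 of Myf5Cre-Pcyt2 lay just under replicate 1 of control. Smpd1, the acid sphingomyelinase that lysosomes release at wounds, fell to 58.3 ± 5.27 CPM in Myf5Cre-Pcyt2, against 76.2 ± 4.43 CPM in control (log2 fold change -0.39, SE 0.09, edgeR adjusted p = 0.0174).

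Each of these 3 calls was lost without some of the single libraries and under some other settings. Ahnak and Smpd1 each passed in 10 of 15 alternatives. Log2 fold changes over alternatives ran from 0.34 to 0.63 for Ahnak, -0.51 to -0.20 for Capn3 and -0.46 to -0.18 for Smpd1. Without Myf5Cre-Pcyt2 replicates 2 and 3 in turn, the adjusted p was 0.117 and 0.105 for Ahnak, 0.135 and 0.144 for Capn3, and 0.0847 and 0.0679 for Smpd1. Without control replicate 2 it was 0.0799, 0.127 and 0.0595 for the same genes, and without control replicate 3 it was 0.0716 for Ahnak and 0.0719 for Capn3. With a replicate block none of the 3 passed (0.0948 for Ahnak, 0.0795 for Capn3 and 0.0518 for Smpd1), and with library size alone Capn3 and Smpd1 did not pass (0.176 and 0.177). Capn3 also lost its call with a covariate for sex (0.0517) and with the total of all but the 20 most abundant genes (0.0567), and passed in 7 of 15 alternatives. The adjusted p over all alternatives lay between 0.00197 and 0.117 for Ahnak, 0.0015 and 0.176 for Capn3, and 0.00298 and 0.177 for Smpd1. In the same Myf5Cre-Pcyt2 libraries the marker sums of fibres and mural cells were lower, and those of Schwann cells, fibroblasts and satellite cells higher. The fibroblast sums were mainly Col1a1, Col1a2 and Col3a1, which did not pass. Acta2 was a large part of the mural sums. The part of these cell types in the 3 changes was not tested.

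The S100 proteins that pair with annexins did not pass. S100a10, the partner of Anxa2, averaged 67.4 ± 3.0 CPM in Myf5Cre-Pcyt2 and 62.1 ± 10.8 CPM in control (log2 fold change 0.12, edgeR adjusted p = 0.507). S100a11, a partner of Anxa1, averaged 18.3 ± 3.48 CPM in Myf5Cre-Pcyt2 and 15.7 ± 3.24 CPM in control (log2 fold change 0.22, edgeR adjusted p = 0.391). Ano6 averaged 112 ± 4.68 CPM in Myf5Cre-Pcyt2 and 98.1 ± 2.98 CPM in control, with separate groups (log2 fold change 0.18, SE 0.08, edgeR adjusted p = 0.130). It passed under 2 alternatives, library size alone (0.0134) and the total of all but the 20 most abundant genes (0.0328), over a range of 0.0134 to 0.359.

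Fer1l6, a ferlin related to Dysf, had 15.4, 14.2 and 17.6 CPM in Myf5Cre-Pcyt2 and 19.1, 27.2 and 27.1 CPM in control (log2 fold change -0.63, SE 0.14, edgeR adjusted p = 0.0148). The call was lost without replicate 2 of either group (0.0720 for Myf5Cre-Pcyt2, 0.0556 for control) and with library size alone (0.0513), over a range of 1.68e-06 to 0.0720. Of the other annexins, 5 of 8 were tested and 0 passed with edgeR, DESeq2 or limma-voom, while 1 of them was higher at an unadjusted p under 0.05. It was Anxa7, named after its values were seen, at 50.7 ± 1.21 CPM in Myf5Cre-Pcyt2 and 43.3 ± 2.45 CPM in control (SD, n = 3 each; edgeR adjusted p = 0.0755).

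**Figure D4:**
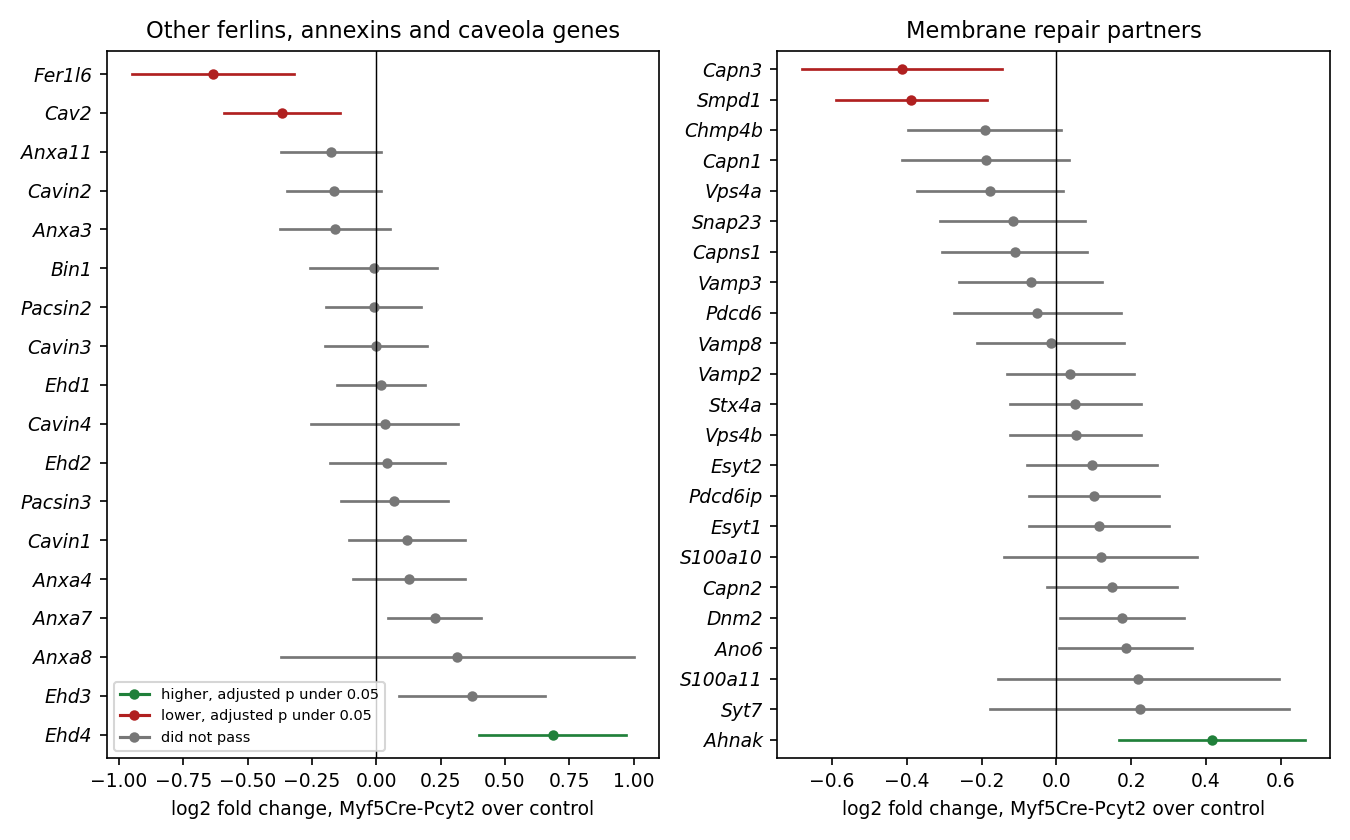
Log2 fold change, Myf5Cre-Pcyt2 over control, with 95% interval, for the 18 tested ferlin, annexin and caveola genes beyond the members (left) and the 23 repair partners (right). Ehd4 (0.69) and Ahnak (0.41) are past the threshold on the higher side, and Fer1l6, Capn3, Smpd1 and Cav2 on the lower side.

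Markers of other cell types that express the widely distributed members were set beside them. Fibroblast markers summed to 16286 to 18292 CPM in Myf5Cre-Pcyt2 and 11697.8 to 15338 CPM in control, with 1 of 8 called higher (Pdgfra). Most of these sums was Col1a1, Col1a2 and Col3a1, at 5648, 4590 and 5113 CPM in Myf5Cre-Pcyt2 replicate 1, and these did not pass. The log2 fold changes of the 8 markers were all positive, from 0.02 for Dcn to 0.54 for Pdgfra. Endothelial markers summed to 817 to 919.7 CPM in Myf5Cre-Pcyt2 and 791 to 954 CPM in control, with 1 of 8 lower. Schwann cell markers summed to 425 to 592 CPM in Myf5Cre-Pcyt2 and 289.9 to 349 CPM in control, with 4 of 6 higher. Macrophage markers summed to 166 to 191 CPM in Myf5Cre-Pcyt2 and 143 to 173 CPM in control, and none of 8 passed with edgeR. Sums of mural cell markers were lower in Myf5Cre-Pcyt2 libraries (1217 to 1396 CPM) than in control libraries (1578 to 1857 CPM). Of these 6 markers 1 was higher (Cspg4) and 1 lower (Acta2). Acta2 had 589, 348 and 476 CPM in Myf5Cre-Pcyt2 and 770, 781 and 918 CPM in control, a large part of the sums. The log2 fold changes of the mural markers were positive for 3 and negative for 3, with a median of -0.006. Adipocyte markers summed to 439 to 513 CPM in Myf5Cre-Pcyt2 and 323 to 916 CPM in control, and none of 6 passed. Control replicate 1 held the highest level, with Plin1 at 102 CPM against 7.95 and 28.8 CPM in the other controls. No marker was at 0 in every library, and the part of these cells in the members' values was not tested.

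Genes whose pattern across the 6 libraries was most like that of 3 members were found by the root mean square difference of mean-centred log2 CPM. The search covered 8518 genes with a mean of at least 10 CPM, without pseudogenes and without unnamed, Gm or Rik genes. With 6 libraries and so many genes, close patterns can arise by chance. No reference distance was computed, and shared regulation was not tested. For Dysf they were Tmem126a (0.07), mt-Nd1 (0.08) and Chchd2 (0.08), for Cav3 Tceal9 (0.02), Hat1 (0.03) and Snhg8 (0.04), and for Anxa2 Eif6 (0.02), Klf4 (0.03) and Tada1 (0.03).

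**Figure D5:**
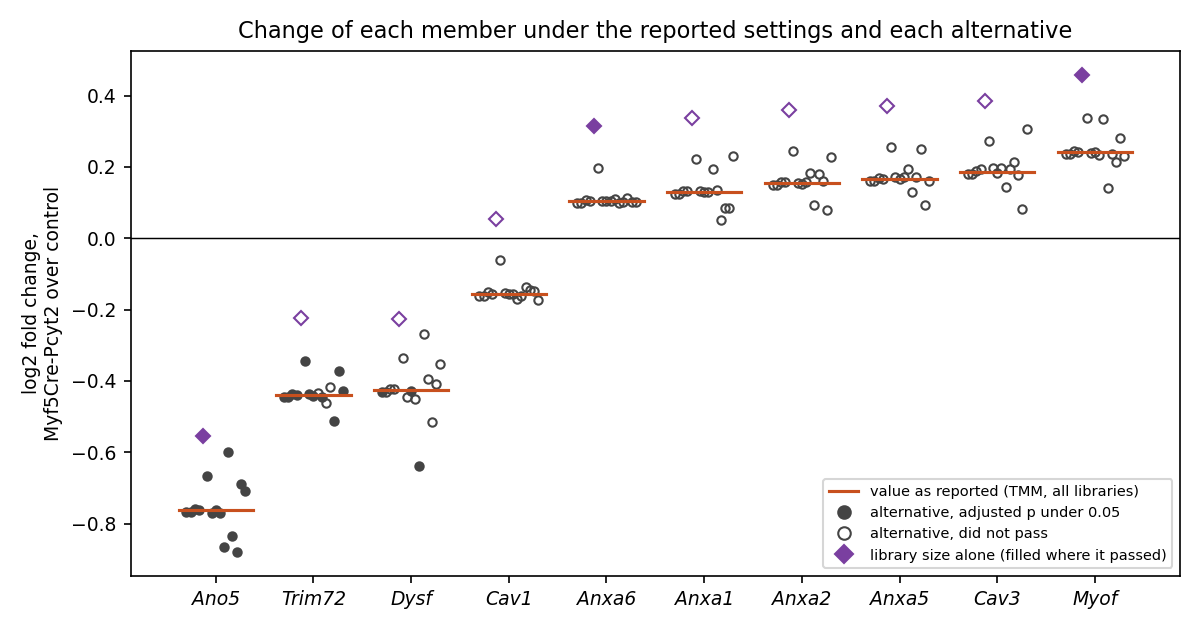
Log2 fold change of each member, Myf5Cre-Pcyt2 over control, as reported (orange bar) and under 15 alternatives (points, filled where the adjusted p is under 0.05), with library size alone as purple diamonds. Ano5 is filled in all 15, Trim72 in 11 and Dysf in 3, and library size alone shifts every member upward.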

How the data were processed

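RNA was measured in 6 quadriceps libraries, 3 Myf5Cre-Pcyt2 and 3 control. The authors deposited raw counts per Ensembl gene. The submitters' processing notes list Trim Galore 0.5.0, Bowtie2 2.3.4.1, Subread 1.6.2 with its program featureCounts, and the build GRCm38 (mm10), with no roles. Annotation release, strand setting and treatment of multi-mapping reads were not stated in these sources, so counts of near-identical or overlapping genes are uncertain.

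Symbols, positions and exon lengths came from GENCODE M21 (54409 of 54532 IDs matched) and promoter windows from RefSeq (GRCm38.p6). Computation used R 4.3.3, edgeR 4.0.16, limma 3.58.1, DESeq2 1.42.0, Python 3.11.15, SciPy 1.17.1 and matplotlib 3.10.9. Genes passing filterByExpr (14715) entered the quasi-likelihood test of edgeR after TMM scaling; SE and 95% intervals come from that fit, and RPKM is TMM-scaled CPM per kilobase of merged exons. The biological coefficient of variation was 11.6%. The procedure was tested on simulated counts. That simulation gave every gene the same spread, so it does not cover calls that turn on the spread of a single gene.

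The members and gene lists were chosen with earlier results of these data known. The genes named were the 10 members, Pcyt2, 10 partners fixed by name, every other gene of the pathway lists past the threshold, and the 3 nearest patterns of Dysf, Cav3 and Anxa2; Anxa7 was named outside this rule, and the genes at very low counts are listed as counts. No pair of libraries within a group looked like copies, and pairs between groups were not checked for this. Same-numbered libraries were not treated as pairs except in the replicate block. The 15 alternatives changed the scaling (size factors of DESeq2, or library size alone), the tool (limma-voom or DESeq2) or the filter (none, or at least 1 CPM in 3 libraries), added a sex covariate or a replicate block, or left out each library; scaling by all but the 20 most abundant genes was added after the data were seen. Intervals cover counting error and variation among these 6 libraries.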

Additional observations from a re-analysis of the deposited data

How the results depend on the processing

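The replicate block gave 1 lower member, 3 of the other pathway genes and 1731 genes in all, against 2, 6 and 2739. Deviations of same-numbered libraries correlated at -0.111, -0.174 and 0.018, and those of other pairs at -0.063 to 0.164. These values showed no pairing by number but cannot exclude it with so few libraries. The numbers did match in sex, with replicate 3 the male library of each group. Library size alone gave 2 higher and 1 lower members and 10 other pathway genes, and put the median log2 fold change of all genes at 0.21. Calls over all genes were then 3225 higher and 499 lower, against 1328 and 1411 with TMM. Scaling by all but the 20 most abundant genes put that median at 0.09, with 2008 higher and 935 lower. With no filter on low counts the SE was 0.11 for Dysf, Ano5 and Capn3 and 0.10 for Ano6. With the filter these were 0.16, 0.16, 0.12 and 0.08. The adjusted p without the filter therefore took little account of how far the libraries of a single gene spread. Leaving out each library in turn gave 0 higher and 1 to 3 lower members, 1 to 6 other pathway genes and 846 to 2785 genes in all. Over the 24 genes followed, 317 of 360 values kept their sign and side of the threshold, 31 lost the call, 7 gained it and 5 changed sign. The sign changes were Cav1 at 0.0546 with library size alone, Cavin4 at -0.03 without Myf5Cre-Pcyt2 replicate 1 and -0.0831 without control replicate 1, and Ehd2 at -0.01 without Myf5Cre-Pcyt2 replicate 2 and -0.0316 without control replicate 3, none of them past the threshold; without each library in turn Cavin4 ran from -0.0831 to 0.174 and Ehd2 from -0.0316 to 0.0973. The Anxa2/Anxa6 difference was -8e-04 without Myf5Cre-Pcyt2 replicate 2 and -0.0247 without control replicate 2; without each library in turn it ran from -0.0247 to 0.126, Myof/Dysf from 0.41 to 0.97, Cav1/Cav3 from -0.48 to -0.23 and Ano6/Ano5 from 0.79 to 1.1. The cause of these shifts was not tested. Myof, with 256 to 461 counts per library, was the member with least depth.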

Other observations

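Several relatives were near or at the detection limit of this muscle. Fer1l4 and Anxa10 had 0 counts in every library, which allows at most 3 counts, or 0.147 to 0.169 CPM of a library total, for counting error only. Otof, the ferlin of inner hair cell synapses, had 1, 2 and 4 counts in Myf5Cre-Pcyt2 and 5, 1 and 8 in control. Fer1l5 had 2 to 3 counts in every library, Anxa13 0 to 2, and Anxa9 6 to 11 in Myf5Cre-Pcyt2 and 3 to 9 in control. None of the 6 passed the filter on low counts. With no filter, Otof, Fer1l5, Anxa9 and Anxa13 entered the edgeR fit and did not pass (adjusted p = 0.410, 0.816, 0.956 and 0.717).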
